A study of Mus musculus with 2 samples.

Results

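The 8 genes described here encode surface proteins that have been used to mark, isolate or target chronic myeloid leukemia (CML) stem cells: Il2ra (CD25), Dpp4 (CD26), Il1rap, Cd44, Cd93, Cd33, Cd36 and Cd47. They were named by gene symbol, with earlier results of these data known, and all 8 were found among the 23284 genes of the expression tables. The data are 1 RNA-seq library of WT CML LSCs and 1 of STAP-1 KO CML LSCs, so that each value below is a single measurement with no replicate check, and no test of the genotype was possible. The question was how loss of STAP-1, an adaptor protein that binds BCR-ABL, alters gene expression in leukemic stem cells. WT donors were wild type C57BL/6J mice, and STAP-1 KO donors were C57BL/6J mice carrying a germline targeted disruption of Stap1 in all cells. In both groups, donor LSK cells (lineage-negative, Sca-1-positive, c-Kit-high marrow progenitors) were infected with a retrovirus that carries human p210 BCR-ABL and GFP, and were transplanted into lethally irradiated Ly5.1 C57BL/6SJL recipients together with normal Ly5.1 marrow. Mice were 8 to 14 weeks old. GFP+ CD45.2+ LSK cells were sorted from the primary recipients on day 11 of the first bone marrow transplant. BCR-ABL is driven here by a viral promoter rather than from its chromosomal fusion, the recipients keep their own STAP-1, and how many mice were pooled in each library is not given in the sources used here.

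CML stem cells share most of their surface with normal hematopoietic stem cells, which is why a small number of antigens that separate them has been sought. CD25 is the alpha chain of the interleukin-2 receptor, CD26 is a dipeptidyl peptidase that can cleave the homing chemokine CXCL12, and IL1RAP is the signaling co-receptor of the IL-1 receptor family. CD44 binds hyaluronan and supports lodging in marrow, and CD93 is a C-type lectin-like protein of early progenitors and endothelium. CD33 is a sialic acid-binding receptor of myeloid cells, CD36 takes up fatty acids, and CD47 gives macrophages a signal not to engulf the cell.

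Stap1 was 62.0 FPKM (a level scaled to library size and divided by transcript length) in WT and 0.309 FPKM in STAP-1 KO, which matches the genotype labels. Transcripts of the 3 antigens used for sorting were present in both libraries but were lower in STAP-1 KO. Kit was 468 FPKM in WT and 30.1 FPKM in STAP-1 KO, Ly6a (Sca-1) was 285 and 106 FPKM, and Ptprc (CD45) was 107 and 38.2 FPKM. Of the B cell genes, Pax5 was listed at 0 in both libraries, while Cd79b was 3.10 and 17.8 FPKM. The T cell genes Cd3d, Cd3e and Cd3g lay between 0.681 and 5.04 FPKM, and the sum of all 7 T cell genes was 5.98 and 9.65 FPKM. Of the 5 endothelial genes compared, 2 were at least 2-fold lower and 1 at least 2-fold higher, beside 22.9% and 12.3% of all genes. With transcript length and GC content corrected, 1 was lower and 2 were higher, beside 17.6% and 10.7% of all genes. Pecam1, which blood cells also express, was 46.9 and 23.4 FPKM, Emcn was 0.110 and 0.787 FPKM, and Cdh5 was at 0.0706 FPKM or less. All 11 measurable mast cell and basophil markers of a list of 12 were at least 2-fold lower in STAP-1 KO, beside 22.9% of all genes, with Rgs13 listed at 0 in both. All 5 neutrophil precursor markers were at least 2-fold higher, beside 12.3% of all genes. The steps between low FPKM values put the effective depth at 7490000 reads in WT and 10470000 reads in STAP-1 KO. Reads behind each gene were estimated from these depths, and the 95% intervals below cover counting error only.

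The 8 surface markers differed widely in level. In WT, Cd47 at 437 FPKM and Il2ra at 346 FPKM made up 49.7% and 39.4% of the summed level of the 8 genes, which was 879 FPKM. Cd44 at 31.9 FPKM and Cd33 at 31.1 FPKM came next, and their counting intervals overlapped. Dpp4 was 13.3 FPKM, Cd93 was 9.17 FPKM, Cd36 was 6.65 FPKM and Il1rap, the lowest, was 3.66 FPKM. In STAP-1 KO the sum was 703 FPKM, of which Cd47 alone made up 89.2%, and Il2ra made up 3.46%. The order after Cd47 was Cd44 (26.4 FPKM), Il2ra (24.3 FPKM), Dpp4 (10.9 FPKM), Il1rap (6.45 FPKM), Cd93 (3.48 FPKM), Cd36 (2.36 FPKM) and Cd33 (2.01 FPKM), and the intervals of Cd44 and Il2ra overlapped, as did those of Cd36 and Cd33. Cd33 thus ranked 4 of 8 in WT and last in STAP-1 KO, and Il1rap ranked last in WT and 5 of 8 in STAP-1 KO.

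**Figure D1:**
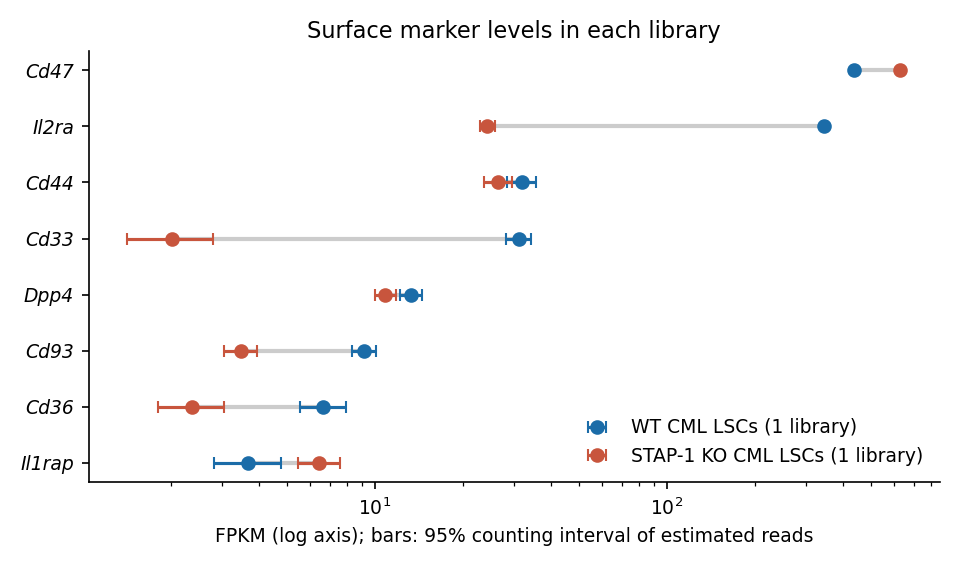
Level of the 8 surface markers in FPKM on a log axis, with a point for each library, and bars giving the 95% counting interval of the estimated reads. Il2ra (346 and 24.3 FPKM) and Cd33 (31.1 and 2.01 FPKM) are far apart between the libraries, while Cd44 (31.9 and 26.4 FPKM) and Dpp4 (13.3 and 10.9 FPKM) are close.

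Il2ra (ENSMUSG00000026770.5, mm10 chromosome 2, 11642807 to 11693193, plus strand) was 346 FPKM in WT and 24.3 FPKM in STAP-1 KO. This is 14.2-fold lower in STAP-1 KO (95% counting interval 13.4 to 15.2, from an estimated 10895 and 1069 reads), a log2 ratio of -3.83. In a bulk library, fewer cells that carry a transcript and less of it per cell cannot be told apart, here or for the genes below. Among the 10974 genes averaging 1 FPKM or more, the level of Il2ra stood at the 97.9th percentile in WT and at the 62.2nd in STAP-1 KO. Of the 7 T cell markers, 2 were at least 2-fold lower in STAP-1 KO and 3 at least 2-fold higher, beside 22.9% and 12.3% of all genes. After correction for transcript length and GC content 2 were lower and 2 higher, beside 17.6% and 10.7%. Foxp3, the regulatory T cell factor whose cells carry CD25, was 1.86 FPKM in WT and 0.305 FPKM in STAP-1 KO, while Ctla4, which those cells also carry, was 0.232 and 1.94 FPKM. The lineage antibodies of the sort, which was for lineage-negative cells, included those to CD3e and CD8. The promoter is shown because Il2ra had one of the 2 lowest ratios of the set and its window held an NF-kB motif, given in capitals. The 250 bases before the start site lie at chr2:11642542-11642791, plus strand (RefSeq, GRCm38.p6).
Il2ra: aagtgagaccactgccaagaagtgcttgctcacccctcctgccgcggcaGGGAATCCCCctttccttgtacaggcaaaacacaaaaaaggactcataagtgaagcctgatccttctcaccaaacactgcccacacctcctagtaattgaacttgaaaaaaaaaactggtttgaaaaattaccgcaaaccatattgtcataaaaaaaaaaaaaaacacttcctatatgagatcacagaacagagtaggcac

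Of the other chains of the IL-2 receptor, Il2rb, the signaling beta chain, was 3.81 FPKM in WT and 1.92 FPKM in STAP-1 KO, which did not reach 2-fold. Il2rg, the common gamma chain, was 626 and 298 FPKM, 2.10-fold lower in STAP-1 KO, so that Il2rb was the least abundant chain in both libraries. The ligand Il2 was listed at 0 in both. Jak1, a receptor-bound kinase, was 3.36-fold lower (181 and 54.0 FPKM), and the STAT5-induced inhibitors Cish (432 and 133 FPKM) and Socs1 (78.2 and 24.1 FPKM) were each 3.25-fold lower. Il15ra, the alpha chain that pairs with the same beta and gamma chains to bind IL-15, was instead 2.78-fold higher in STAP-1 KO (7.94 and 22.1 FPKM). Jak3 (14.3 and 14.4 FPKM), Stat5a (20.8 and 18.3 FPKM) and Socs3 (18.9 and 13.5 FPKM) were within 2-fold. Of the 11 partners compared, 5 were at least 2-fold lower in STAP-1 KO and 1 was at least 2-fold higher. Over all 12507 genes above the floor of 0.1 FPKM in both libraries, 22.9% were at least 2-fold lower and 12.3% at least 2-fold higher. After correction for transcript length and GC content 4 partners were lower and 1 higher, beside 17.6% and 10.7% of all genes. Stat5b was the one no longer lower (log2 ratio -0.42).

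Il1rap (ENSMUSG00000022514.14, chromosome 16, 26581704 to 26730117, plus strand) was 3.66 FPKM in WT and 6.45 FPKM in STAP-1 KO. It was 1.76-fold higher in STAP-1 KO (95% counting interval 1.28 to 2.42), which did not reach 2-fold, and it had the highest ratio of the 8 genes at a log2 of 0.80. Il1rap has 4 annotated RefSeq transcripts, and between 57.5 and 118 reads in WT lie behind its value, depending on the transcript. Il1r1, the IL-1 receptor itself, was 6.36 FPKM in WT and 3.53 FPKM in STAP-1 KO. The decoy receptor Il1r2 was 5.05 and 6.56 FPKM, and Sigirr, an inhibitory member of the family, was 15.6 and 16.2 FPKM. Il1rl1 (ST2), the IL-33 receptor that signals through the same co-receptor and is abundant on mast cells, was 521 and 23.3 FPKM, 22.3-fold lower in STAP-1 KO. Il1rap was thus below Il1rl1 in both libraries, by much less in STAP-1 KO. The ligand Il1b was 5.04-fold lower (199 and 39.5 FPKM) and Il1a was 2.77-fold lower (3.81 and 1.37 FPKM), while Il33 was at 0.0573 FPKM in WT and listed at 0 in STAP-1 KO. Of the signal mediators, Tollip was 3.52-fold lower (108 and 30.6 FPKM) and the kinase Irak2 was 3.41-fold lower (13.9 and 4.07 FPKM). Irak3 was instead 1.95-fold higher (6.38 and 12.5 FPKM), and Myd88 (89.4 and 86.4 FPKM) and Irak1 (52.6 and 51.8 FPKM) differed little. In all, 7 of 16 partners compared were at least 2-fold lower and 0 were at least 2-fold higher, beside 22.9% and 12.3% of all genes. After correction for transcript length and GC content 6 were lower, without Traf6 (log2 ratio -0.51), and 0 higher, beside 17.6% and 10.7%.

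Dpp4 (ENSMUSG00000035000.8, chromosome 2, 62330073 to 62412231, minus strand) was 13.3 FPKM in WT and 10.9 FPKM in STAP-1 KO. The difference was 1.22-fold (95% counting interval 1.08 to 1.38-fold lower), small beside those of Il2ra and Cd33. Of its substrates and partners, the chemokine Cxcl12 was 0.194 FPKM in WT and 2.68 FPKM in STAP-1 KO. At its longest annotated transcript this is about 7.88 estimated reads in WT and 152 in STAP-1 KO, and fewer at a shorter one. The CXCL12 receptor Cxcr4 was 7.47 and 8.74 FPKM. Ada, the adenosine deaminase that docks on CD26, was 68.1 and 36.4 FPKM. The intracellular peptidases Dpp7 (32.3 and 16.2 FPKM) and Dpp8 (33.4 and 16.1 FPKM) were 1.99-fold and 2.07-fold lower, and Dpp8 was within 2-fold after correction for transcript length and GC content (log2 ratio -0.72). Anpep (CD13), another membrane peptidase of myeloid cells, had the lowest ratio among the partners of all 8 genes, 151 FPKM in WT and 1.07 FPKM in STAP-1 KO. Of 10 partners compared, 2 were at least 2-fold lower and 2 at least 2-fold higher, beside 22.9% and 12.3% of all genes. The correction left 2 and 2, beside 17.6% and 10.7% of all genes. Ada then stood in place of Dpp8, and Prep (94.3 and 104.8 FPKM) in place of Gpc3 (0.194 and 0.417 FPKM).

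Cd44 (ENSMUSG00000005087.17, chromosome 2, 102811141 to 102901665, minus strand) was 31.9 FPKM in WT and 26.4 FPKM in STAP-1 KO, 1.21-fold lower (95% counting interval 1.03 to 1.42). Cd44 has 6 annotated RefSeq transcripts, so the reads behind its WT value lie between 287 and 1290. Its gene-level value does not separate the standard from the variant isoforms. The hyaluronan synthases Has1, Has2 and Has3, which make its main ligand, were listed at 0 in both libraries. Spp1 (osteopontin), another ligand, was 21.1 FPKM in WT and 35.5 FPKM in STAP-1 KO. The chondroitin sulfate proteoglycan Srgn (serglycin), which CD44 can bind and which mast cells store in granules, was 6691 and 1588 FPKM, 4.21-fold lower in STAP-1 KO. Msn (moesin), which links the CD44 tail to actin, was 4.67-fold lower (780 and 167 FPKM), and Mmp14, a protease that sheds CD44, was 4.14-fold lower (4.97 and 1.20 FPKM). Selplg, the P-selectin ligand, was 178 and 96.5 FPKM, and Fut7, which builds selectin-binding sugars, was 2.27-fold higher (9.29 and 21.1 FPKM). Of 14 partners compared, 3 were at least 2-fold lower and 1 at least 2-fold higher, beside 22.9% and 12.3% of all genes. After correction for transcript length and GC content 4 were lower, with Selplg, and 1 was higher, beside 17.6% and 10.7% of all genes.

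Cd33 (ENSMUSG00000004609.11, chromosome 7, 43524216 to 43544428, minus strand) was 31.1 FPKM in WT and 2.01 FPKM in STAP-1 KO. At a log2 ratio of -3.89 it was 15.5-fold lower in STAP-1 KO (95% counting interval 11.02 to 22.3), the lowest ratio of the 8 genes, although the intervals of Cd33 and Il2ra overlapped. At least 409 reads in WT and 36.9 in STAP-1 KO lie behind these values. The level went from the 67.5th percentile of the genes averaging 1 FPKM or more to the 13.7th. The promoter is shown as that of the other gene with a ratio this low. The 250 bases before the start site lie at chr7:43533172-43533421, minus strand (RefSeq, GRCm38.p6). This RefSeq start lies inside the gene bounds given above, which are from GENCODE, and the bases before the outer bound were not searched. No letter is capitalised, since none of the motifs searched was found.
Cd33: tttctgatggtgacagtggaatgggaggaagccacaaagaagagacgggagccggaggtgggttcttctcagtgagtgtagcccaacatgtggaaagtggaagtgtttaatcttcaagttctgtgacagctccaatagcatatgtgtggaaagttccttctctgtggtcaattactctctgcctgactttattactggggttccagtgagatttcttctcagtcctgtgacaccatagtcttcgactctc

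Siglecg, the most abundant of the other sialic acid-binding lectins measured, was 1.58 FPKM in WT and 2.90 FPKM in STAP-1 KO. Tyrobp (DAP12), the adaptor through which mouse CD33 and related receptors can signal, was 992 and 238 FPKM, 4.17-fold lower in STAP-1 KO. Ptpn6 (SHP-1), the phosphatase recruited by inhibitory receptors of this family, was 148 and 168 FPKM. Neu1, a sialidase, was 18.4 and 9.52 FPKM, and Gne, which starts sialic acid synthesis, was 25.3 and 29.8 FPKM. Of 8 partners compared, 1 was at least 2-fold lower and 1 at least 2-fold higher, beside 22.9% and 12.3% of all genes.

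Cd93 (ENSMUSG00000027435.8, chromosome 2, 148436640 to 148443563, minus strand) was 9.17 FPKM in WT and 3.48 FPKM in STAP-1 KO, 2.64-fold lower (95% counting interval 2.25 to 3.11, from an estimated 444 and 235 reads). Corrected for transcript length and GC content, its log2 ratio went from -1.37 to -0.54, which is within 2-fold. Its extracellular ligand Mmrn2 was listed at 0 in both libraries. Igfbp7, a secreted protein that also binds CD93, was 2.96-fold higher in STAP-1 KO (8.38 and 24.8 FPKM), and Cd248, a lectin-like relative of CD93, was 2.40-fold higher (0.793 and 1.91 FPKM). The cytoplasmic partners Gipc1 (49.2 and 39.1 FPKM) and Cbl (4.16 and 3.35 FPKM) were within 1.5-fold. Of 5 partners compared, 1 was at least 2-fold lower and 2 at least 2-fold higher, beside 22.9% and 12.3% of all genes.

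Cd36 (ENSMUSG00000002944.15, chromosome 5, 17781690 to 17888801, minus strand) was 6.65 FPKM in WT and 2.36 FPKM in STAP-1 KO, 2.81-fold lower (95% counting interval 2.06 to 3.90). The counting intervals of its ratio and that of Cd93 overlapped, so the order of these 2 ratios as deposited is not resolved. Corrected for transcript length and GC content, the log2 ratio was -1.78 for Cd36 and -0.54 for Cd93. Thbs1 (thrombospondin-1), a ligand of both CD36 and CD47, was 3.08-fold lower (3.53 and 1.14 FPKM), but within 2-fold after correction for transcript length and GC content (log2 ratio -0.98). Slc27a1, a fatty acid transporter, was 3.02-fold lower (17.7 and 5.87 FPKM). Of the SRC family kinases that act below CD36, Lyn was 2.05-fold lower (78.7 and 38.4 FPKM) and Fyn was 1.62-fold higher (13.3 and 21.7 FPKM). Fabp5, an intracellular fatty acid carrier, was 234 and 140.5 FPKM. Of 11 partners compared, 3 were at least 2-fold lower (2 after the correction) and 1 at least 2-fold higher, beside 22.9% and 12.3% of all genes (17.6% and 10.7% after the correction).

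Cd47 (ENSMUSG00000055447.19, chromosome 16, 49800533 to 49915010, plus strand) was 437 FPKM in WT and 627 FPKM in STAP-1 KO, 1.43-fold higher (95% counting interval 1.41 to 1.46). It was the most abundant of the 8 genes in both libraries, at the 98.5th and the 99.1st percentile. The ratio of Cd47 to Il2ra was 1.26 in WT and 25.8 in STAP-1 KO. The promoter is shown as that of the most abundant gene of the set and for contrast with Il2ra and Cd33. The 250 bases before the first of its 2 annotated start sites lie at chr16:49855404-49855653, plus strand (RefSeq, GRCm38.p6). This RefSeq start lies inside the gene bounds given above, which are from GENCODE.
Cd47: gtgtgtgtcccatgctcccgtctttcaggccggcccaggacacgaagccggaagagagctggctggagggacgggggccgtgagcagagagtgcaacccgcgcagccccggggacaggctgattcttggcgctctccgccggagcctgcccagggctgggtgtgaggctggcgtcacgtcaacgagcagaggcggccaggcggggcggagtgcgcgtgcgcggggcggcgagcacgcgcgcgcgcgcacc

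The counter-receptor Sirpa, found on macrophages and some progenitors, was 6.76 FPKM in WT and 5.12 FPKM in STAP-1 KO. Calr (calreticulin), which at the surface acts as the opposing signal for engulfment, was 777 and 956 FPKM. The integrin chains Itgb3 and Itgav, which associate with CD47, were 7.80-fold lower (27.7 and 3.55 FPKM) and 6.43-fold lower (10.4 and 1.62 FPKM). Qpctl, the enzyme that modifies CD47 so that it can be bound by SIRP-alpha, was 2.24-fold lower (15.0 and 6.72 FPKM). Cd24a, another signal against engulfment, was 497 and 301.1 FPKM. Of 8 partners compared, 5 were at least 2-fold lower and 0 at least 2-fold higher, beside 22.9% and 12.3% of all genes. After correction for transcript length and GC content 4 were lower and 0 higher, beside 17.6% and 10.7% of all genes. These 4 were without Thbs1 (log2 ratio -0.98) and Lrp1 (-0.27) and with Cd24a (-1.23).

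**Figure D2:**
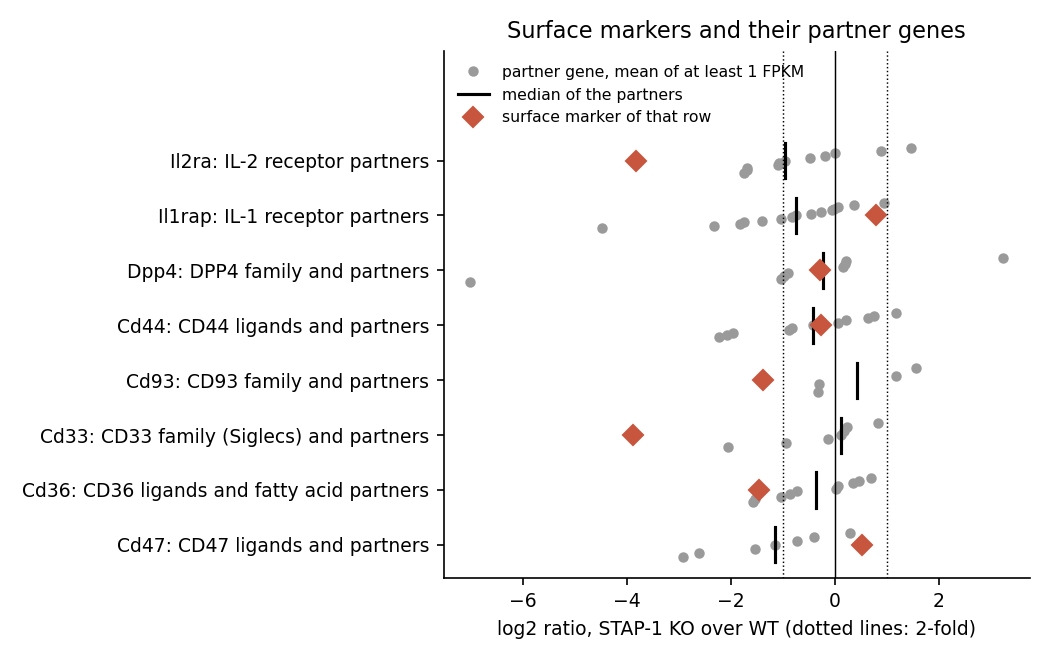
Log2 ratio of STAP-1 KO over WT for each surface marker (diamond) and for its partner genes averaging 1 FPKM or more (points), with the median of the partners as a bar and dotted lines at 2-fold. Il2ra (-3.83) and Cd33 (-3.89) lie below all of their plotted partners, Cd47 (0.52) above all of its own, and Dpp4 (-0.29) and Cd44 (-0.27) near the partner medians of -0.23 and -0.41.

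Set side by side, the 8 genes split by size of difference rather than moving as a block. Of the 8 genes, 4 (Il2ra, Cd33, Cd36 and Cd93) were at least 2-fold lower in STAP-1 KO, against 22.9% of all genes, and 0 were at least 2-fold higher, against 12.3%. At 4-fold, 2 genes (Il2ra and Cd33) were lower, against 8.56% of all genes. The remaining 4 (Dpp4, Cd44, Cd47 and Il1rap) were within 2-fold, and 1 of them (Il1rap) was at least 1.5-fold higher, against 25.6% of all genes. The median log2 ratio of the 8 was -0.83, with a range of -3.89 to 0.80, and the median of all 10974 genes averaging 1 FPKM or more was -0.04. With 8 genes, these counts describe the set and are no test of it. Counting intervals of the ratios were apart between the pair Cd33 and Il2ra and the pair Cd36 and Cd93, between the latter and the pair Dpp4 and Cd44, and between the latter and the pair Cd47 and Il1rap, while they overlapped within each pair. Since the pairs were formed by their ratios, levels within a pair moved little relative to each other: Il2ra was 11.1 times Cd33 in WT and 12.1 times in STAP-1 KO, Cd93 was 1.38 and 1.47 times Cd36, Cd44 was 2.40 and 2.43 times Dpp4, and Cd47 was 119 and 97.2 times Il1rap. Across pairs they moved more. Cd44 was 1.02 times Cd33 in WT and 13.1 times in STAP-1 KO, and Il1rap was 0.551 times Cd36 in WT and 2.73 times in STAP-1 KO. The pairs are of the ratios as deposited. Corrected for transcript length and GC content, Cd36 was at -1.78 and Cd93 at -0.54, so these 2 genes were then further apart.

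**Figure D3:**
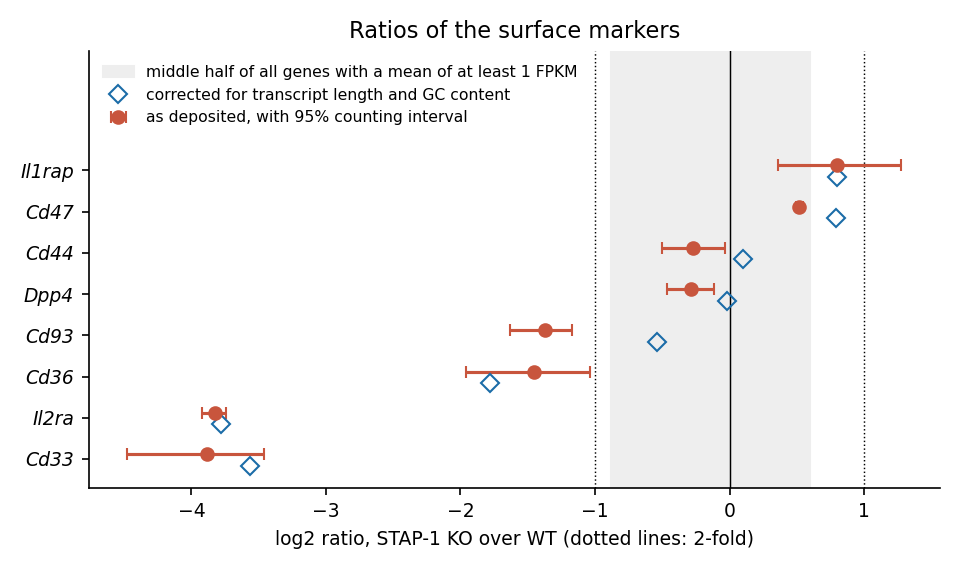
Log2 ratio of STAP-1 KO over WT for the 8 surface markers as deposited, with the 95% counting interval, and after correction for transcript length and GC content, against the middle 50% of genes averaging 1 FPKM or more (grey, -0.88 to 0.59). Cd33 and Il2ra lie between -3.89 and -3.56 by either measure, and Cd93 goes from -1.37 to -0.54 with the correction.

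Across all genes, the ratio moved with transcript length, with lower ratios for longer transcripts (Spearman's rho of -0.37 across 10863 annotated genes, which are not independent replicates). The surface markers are long: the median of their longest transcripts was 5259 bases against 3220 bases for all genes. After subtraction of the median of genes of like length and GC content, Il2ra (-3.78), Cd33 (-3.56) and Cd36 (-1.78) were still at least 2-fold lower, and Il1rap (0.80) and Cd47 (0.79) were still higher but within 2-fold. Cd93 was at -0.54 and was no longer 2-fold lower. Dpp4 was at -0.02 and Cd44, now above 0, at 0.10. So 3 of the 8 genes were at least 2-fold lower and 0 at least 2-fold higher, beside 17.6% and 10.7% of all 12361 genes corrected in the same way. The median of the 8 genes was then -0.28, and the part of length in these ratios was not tested further.

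**Figure D4:**
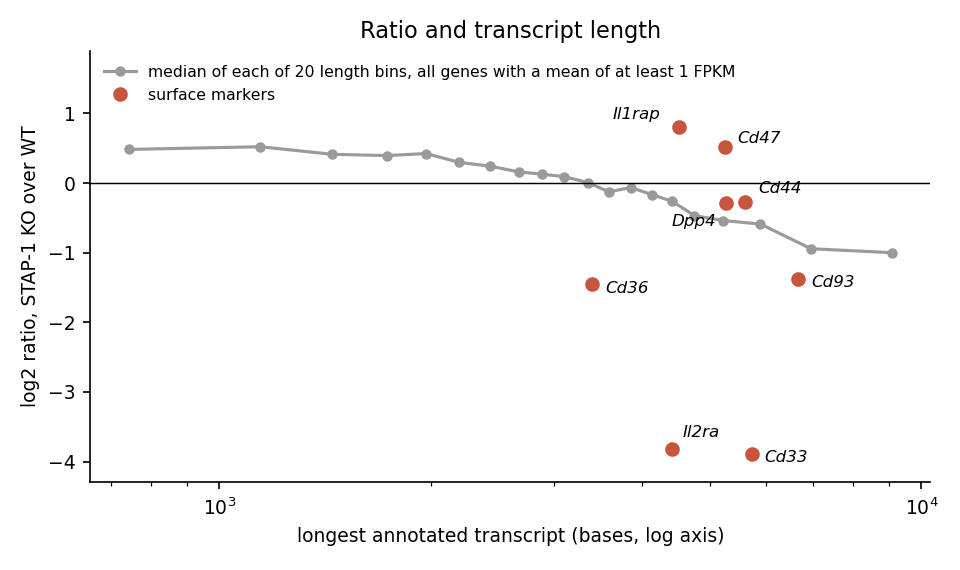
Log2 ratio of STAP-1 KO over WT against the longest annotated transcript in bases on a log axis, for the 8 surface markers (points) and as the median of 20 length bins over genes averaging 1 FPKM or more (line). Cd93 lies close to the falling line at -1.37, whereas Il2ra and Cd33 lie below -3.8, far under it.

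The mast cell and basophil markers, which include the granule proteases Cma1 and Cpa3, summed to 52097 FPKM in WT and 5339 FPKM in STAP-1 KO, 9.76-fold lower. All 11 measurable members were lower, by 2.82-fold (Mcpt8) to 49.1-fold (Tpsab1), beside 22.9% of all genes at least 2-fold lower. The neutrophil precursor markers summed to 564 and 4623 FPKM. Among the surface markers, Il2ra and Cd33 had the ratios nearest to that of the mast cell and basophil sum. Relative to it, Il2ra was 0.664% in WT and 0.455% in STAP-1 KO, and Cd33 was 0.0597% and 0.0377%. The other 6 genes were higher relative to the sum in STAP-1 KO, from 3.47-fold for Cd36 and 3.70-fold for Cd93 to 14.0-fold for Cd47 and 17.2-fold for Il1rap. Whether mast cells or basophils carried Il2ra or Cd33 in these libraries was not tested, and a different mix of cells and a different level within a cell cannot be told apart. Of the 4 genes that were at least 2-fold lower, the nearest genes in level in both libraries were Cd97 and Nov for Il2ra (at log2 distances of 0.33 and 0.36), Gimap3 and Ssfa2 for Cd33 (0.069 and 0.14), R3hdm2 and Espl1 for Cd93 (0.011 and 0.022), and Eea1 and Slc26a2 for Cd36 (0.0064 and 0.027). This likeness is over 2 libraries only.

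**Figure D5:**
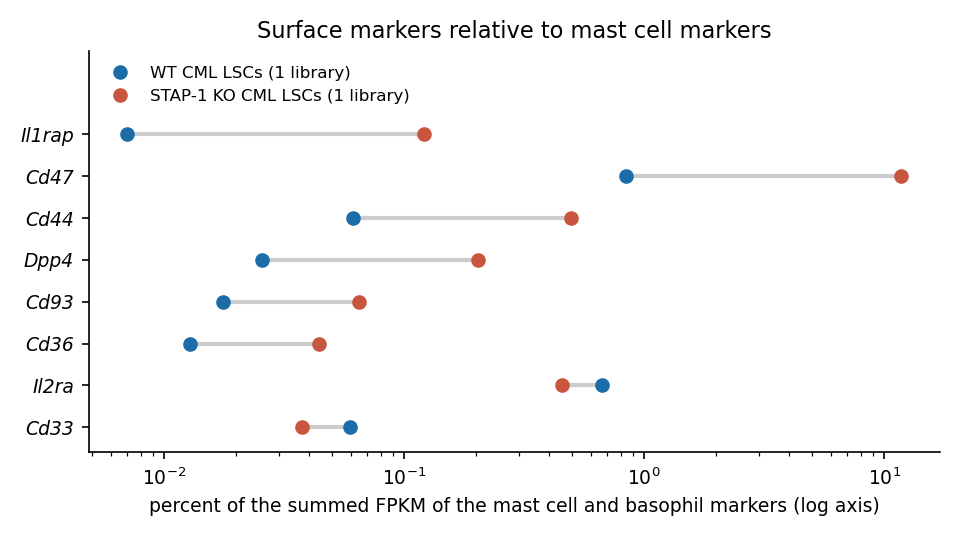
Each surface marker as a percent of the summed FPKM of the mast cell and basophil markers in the same library, on a log axis, for the WT and STAP-1 KO libraries. Il2ra (0.664% and 0.455%) and Cd33 (0.0597% and 0.0377%) differ by 1.46-fold and 1.59-fold, and the other 6 genes lie further right in STAP-1 KO.

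Promoter windows (250 bases before to 50 bases after the start site) were found for 7 of the 8 genes, all but Cd93. The windows of Cd33 and Cd36, and the one shown for Cd47, lie inside the GENCODE bounds of these genes. The windows of Cd47 and Il1rap were rich in CpG dinucleotides, with 35 in Cd47 and 33 in Il1rap. Those of the other 5 held few, namely 3 in Il2ra, 3 in Cd36, 4 in Cd33, 4 in Dpp4 and 6 in Cd44, beside a median of 7 over all 32851 windows. The windows were searched on both strands for 5 motifs. The STAT motif TTCNNNGAA, held by 9.55% of the 27025 genes with a window, was in none of the 7, and neither was the PU.1 motif GAGGAAGT (3.69% of genes). The NF-kB motif (GGGAA and CCC spaced by 2 bases, in 2.01% of genes) was in Il2ra only, where it starts 201 bases before the start site. The GATA motif AGATAA (12.7% of genes) was in Dpp4 and Cd44. A PPAR-RXR repeat (AGGTCA, 1 base, AGGTCA), in 0.0481% of genes, was in none. None of these motifs overlapped another in the 7 windows. A match of letters is a description and does not show that a factor bound there.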

How the data were processed

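GFP+ CD45.2+ LSK cells gave 1 SMART-Seq v4 and Nextera XT library per genotype. The authors deposited FPKM values per gene symbol, calculated with Cuffnorm from single-end reads. The submitters' processing notes name TopHat2 2.0.13, Bowtie2 2.2.3, SAMtools 0.1.19, Cufflinks 2.2.1 and build mm10; the published methods give another SAMtools release. The gene annotation and the scaling of the libraries are not given in the sources used here. Cuffnorm divides by transcript length, so FPKM depends on the isoforms annotated.

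Ratios were STAP-1 KO over WT. Folds used the FPKM as deposited, and log2 ratios used a pseudocount of 0.1 FPKM, which understates low genes. A gene was counted as lower or higher where it differed 2-fold or more and both libraries held 0.1 FPKM or more. No p-value was computed, since each group is 1 library. Symbols were matched to GENCODE M21 (GRCm38, the build mm10 names): 20911 as written, 1914 by an older symbol, and 459 not at all. Depth was estimated as the number of reads at which low values of genes with 1 transcript are whole reads (within 0.01 read for 42.3% of 369 values in WT and 46.0% of 348 in STAP-1 KO, with 208 bases taken off the length). It carries the scaling of Cuffnorm and is not the number of reads sequenced. Intervals of ratios are exact binomial ones and those of levels exact Poisson ones, both on the reads of the shortest RefSeq transcript. Length and GC content were corrected by medians of 20 bins each.

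The 8 genes, the partner lists (of which Il36g and Siglecf were not analysed here), the marker lists and the motifs were chosen with earlier results of these data known. Named partners are direct ligands and receptor partners and, in each list, the 5 largest log2 ratios at a pseudocount of 1 FPKM among genes averaging 1 FPKM or more. Il1r2, Sigirr, Lrp1, Prep, Gpc3, Jak3, Stat5a, Stat5b, Socs3, Irak1, Irak3, Myd88 and Traf6 were added after their values were seen. Promoters were taken from RefSeq (GRCm38.p6). Python 3.11.15, numpy 2.4.6, pandas 2.3.3, scipy 1.17.1 and matplotlib 3.10.9 were used, and the steps were tested on simulated data.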

Additional observations from a re-analysis of the deposited data

How the results depend on the processing

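With 1 library per genotype, no library could be left out, and depth limits the low values most, among them Cd33 and Cd36 in STAP-1 KO and Il1rap in WT. Il2ra stayed between -3.83 and -3.78, Cd33 between -3.95 and -3.41, Cd36 between -1.78 and -1.18 and Il1rap between 0.68 and 0.82 on the log2 scale under a pseudocount of 1 FPKM or none, 3 other scalings and a length and GC correction. That correction moved the median of the 8 genes from -0.83 to -0.28 and Cd93 out of the genes at least 2-fold lower, leaving 3 (beside 17.6% of all genes lower and 10.7% higher), and put Cd44 at 0.10. The median was -0.29 over the 7 genes averaging 5 FPKM or more. A cut-off of 1.5-fold gave 1 gene higher (Il1rap, beside 25.6% of all genes), and one of 4-fold gave 2 lower. Scaling and the floor on low values left the counts at 4 lower and 0 higher. The partner and marker lists were also counted with the correction, an alternative chosen after seeing the data.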

Other observations

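Among 20 other surface antigens of stem and progenitor cells, 19 were compared, and of these 6 were at least 2-fold lower and 5 at least 2-fold higher in STAP-1 KO, beside 22.9% and 12.3% of all genes. Havcr2 (TIM-3), an antigen of acute leukemia stem cells that mast cells also carry, was 99.8 FPKM in WT and 6.91 FPKM in STAP-1 KO, 14.4-fold lower, a ratio near those of Il2ra and Cd33. Kit was 15.6-fold lower, and Itga2b (CD41) was 3.79-fold lower (123 and 32.5 FPKM). Clec12a (CLL-1), an antigen of myeloid leukemia stem cells, was instead 3.72-fold higher (14.2 and 52.7 FPKM). Cd27, a TNF receptor family member of progenitors and lymphocytes, was 10.5-fold higher (4.39 and 46.1 FPKM), with its ligand Cd70 listed at 0 in both libraries. The median log2 ratio of the list was -0.33, or -0.13 after correction for transcript length and GC content.

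Counts for the other marker lists are given beside 22.9% of all genes at least 2-fold lower and 12.3% at least 2-fold higher. With the length and GC correction these shares were 17.6% and 10.7%. Monocyte and macrophage markers went both ways, 3 of 6 compared being at least 2-fold lower and 3 at least 2-fold higher. Of the erythroid markers, 2 of 5 were at least 2-fold lower (3 with the length and GC correction) and 0 higher, and of the megakaryocyte and platelet markers 1 of 6 was lower and 1 higher. Of the lineage gate genes, 1 of 4 compared was lower (Cd8a, 0.369 and 0.132 FPKM) and 0 were higher, and with the length and GC correction 2 were lower. T cell markers gave 2 lower and 3 higher of 7, B cell markers 0 lower and 1 higher of 2, and endothelial markers 2 lower and 1 higher of 5, most of them at low levels.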
